A study of Danio rerio with 6 samples.

Results

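The 10 genes described here encode the inflammatory cytokine interleukin-1 beta (il1b), the chemokine Cxcl8a (cxcl8a), the tumour necrosis factors (tnfa and tnfb), the NF-kB subunits (nfkb1, nfkb2, rela and relb) and the I-kB alpha inhibitors (nfkbiaa and nfkbiab). They were chosen by name from a table of 32266 genes, of which 9 were found under the listed name. The remaining gene, cxcl8a, carries the human-type name PF4V1 in that table and was matched by its gene ID, ENSDARG00000104795. Of the 10 genes, 9 had enough reads to be tested and tnfa did not. The tissue came from zebrafish larvae aged 3 days and was the fin fold, a thin fold of skin around the tail in which epidermal layers cover mesenchymal cells and collagen-rich fibres. RNA was sequenced from 3 libraries of folds taken 4 h after amputation and from 3 libraries of uncut folds. No genotype, strain or number of pooled folds is given in the labels, and the descriptions of all 6 libraries name DMSO, a solvent, with no drug named. Whether replicates stem from different batches of larvae is not stated, and p-values therefore reflect only how far these libraries differ from each other, which may be technical.

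Interleukin-1 beta is made as a precursor, mostly by leukocytes and epithelial cells, and is cut to its active form by inflammasome caspases. It acts through a receptor that shares the adaptor MyD88 and the IRAK kinases with Toll-like receptors, while tumour necrosis factor acts through its own receptors. Both routes meet at a kinase complex that marks I-kB proteins for destruction, which frees NF-kB dimers to enter the nucleus and switch on cytokines, chemokines and their own inhibitors. In zebrafish larvae a tail fin cut draws neutrophils and then macrophages to the wound, and Cxcl8 chemokines take part in that recruitment. Activation of NF-kB is a matter of protein location and stability, so transcript levels do not measure it.

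Libraries held 11216130 to 23019556 counts. The first principal component (66.8% of the variance) parted amputated from uncut folds, and on the second (13.7%) it was uncut replicate 1 that lay furthest out. Uncut replicate 3 was the shallowest library, with 1 count worth 0.0972 CPM (counts scaled to a common library size by TMM), against 0.0436 to 0.0659 CPM in the others. Genes were tested with edgeR's quasi-likelihood test, and a gene was called where its p, adjusted over 17883 tested genes, was under 0.05. By that rule 40.4% of all tested genes were called, 20.8% higher (3724) and 19.6% lower (3499) after amputation, and in 51.1% the amputated and uncut libraries did not overlap. Among the genes described here, il1b, tnfb, nfkb1 and nfkb2 were called higher, nfkbiaa and nfkbiab were called lower, and cxcl8a, rela and relb were not called. Fold changes are log2, amputated over uncut, and with TMM scaling they are set against the majority of genes, whose median was 0.003. Scaling by library totals alone moved that median to 0.259, and 6821 genes were then called higher and 1636 lower, among them 5 higher and 1 lower of the genes described here.

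**Figure D1:**
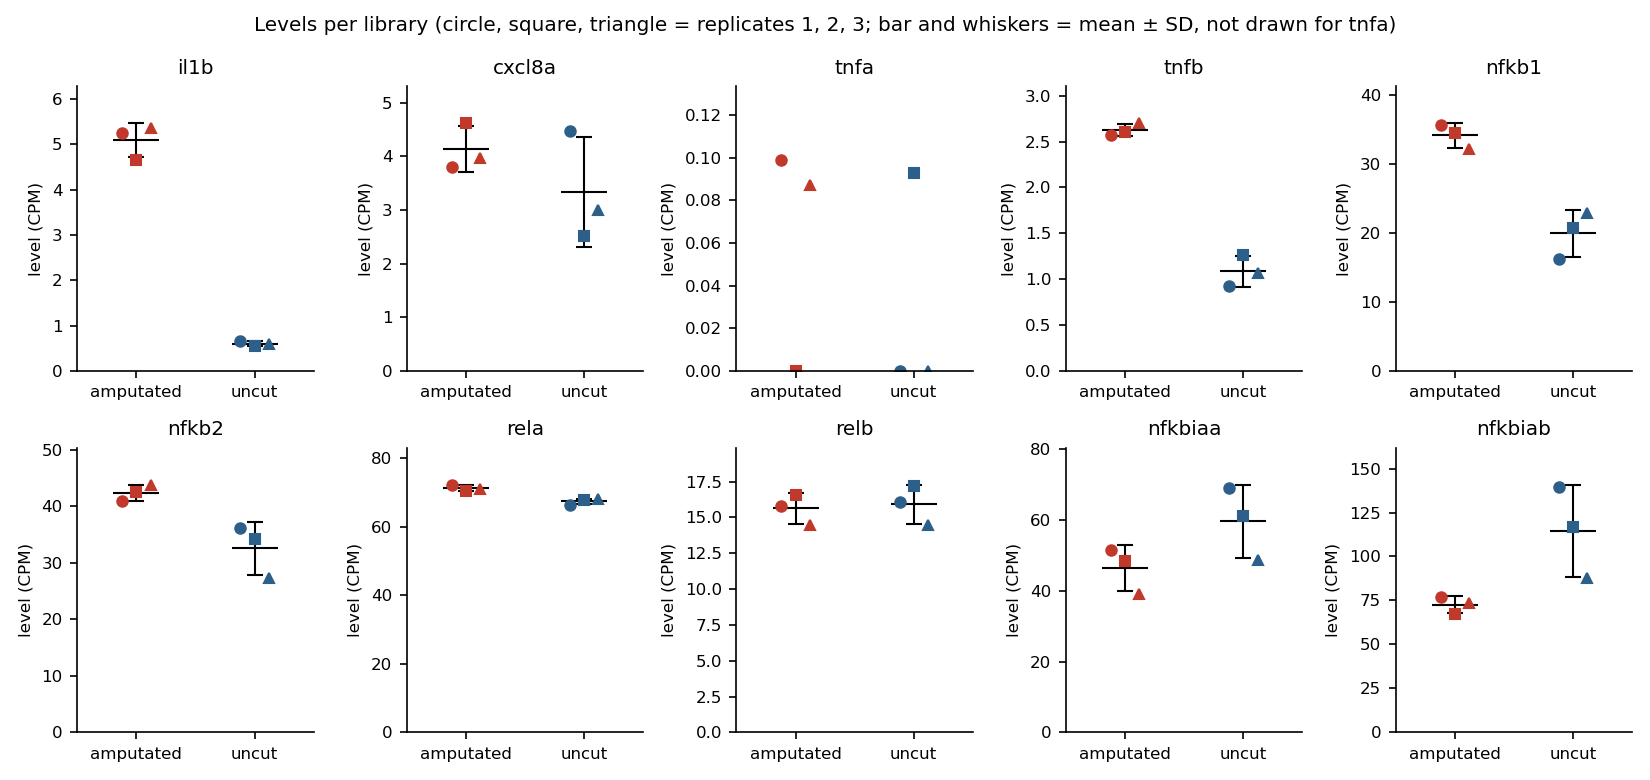
Levels of the 10 genes in scaled counts (CPM, linear axes from 0, a separate scale for each gene) in amputated (left, red) and uncut (right, blue) libraries, with replicates 1, 2 and 3 as circle, square and triangle and the mean ± SD as bar and whiskers (not drawn for tnfa). The groups lie apart for il1b, tnfb, nfkb1, nfkb2, rela and nfkbiab, with il1b at 4.66 to 5.36 CPM against 0.558 to 0.659 CPM.

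The gene il1b (chromosome 10, 45109897 to 45117159) had the largest rise of the tested genes in the set. It had 106, 97 and 123 counts in amputated replicates 1, 2 and 3, against 10, 12 and 6 counts in uncut replicates 1, 2 and 3. In scaled terms these were 5.25, 4.66 and 5.36 CPM in amputated folds and 0.659, 0.558 and 0.583 CPM in uncut folds. Every amputated library was above every uncut library, with coefficients of variation of 7.38% in amputated and 8.72% in uncut folds. Counting error alone is larger than both spreads at these counts, so they do not show how reproducible il1b is. The log2 fold change was 3.08 ± 0.24 (SE, edgeR adjusted p = 2.3e-06), an 8.44-fold rise, with a 95% interval of 2.56 to 3.60. The uncut level rests on 28 counts in all, and il1b met the filter on low counts through the amputated libraries alone. In the authors' deposited table, which gives uncut over amputated, the value was −2.66 (lfcSE 0.27). In a tissue sample, more cells that make a transcript and more of it per cell cannot be told apart, for il1b or for any gene here.

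Of the tumour necrosis factor genes, tnfb rose and tnfa was too low to test. The gene tnfb (chromosome 15, 34841616 to 34844692) had 52, 54 and 62 counts in amputated replicates 1, 2 and 3, against 14, 27 and 11 in uncut replicates 1, 2 and 3. Its level was 2.57, 2.60 and 2.70 CPM in amputated folds and 0.922, 1.26 and 1.07 CPM in uncut folds, with no overlap. It rose by 1.25 ± 0.24 on the log2 scale (SE, edgeR adjusted p = 0.00148), or 2.38-fold. The gene tnfa (chromosome 19, 27435209 to 27439796) was close to undetected, with 2, 0 and 2 counts in amputated replicates 1, 2 and 3, against 0, 2 and 0 counts in uncut replicates. With 4 counts in all amputated and 2 in all uncut libraries, its scaled ratio was 1.47 with a 95% exact conditional binomial interval of 0.211 to 16.2. That interval covers counting error only, and a change of tnfa could not be detected at this depth.

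The chemokine gene cxcl8a (chromosome 1, 13566664 to 13567613), whose product attracts neutrophils, was not called. It had 77, 96 and 91 counts in amputated replicates 1, 2 and 3, against 68, 54 and 31 in uncut replicates 1, 2 and 3. Its level was 3.81, 4.62 and 3.97 CPM in amputated folds and 4.48, 2.51 and 3.01 CPM in uncut folds. The amputated libraries lay close together, and the groups overlapped because uncut replicate 1 was as high as they were. The log2 fold change was 0.32 ± 0.23 (SE, edgeR adjusted p = 0.293), with a 95% interval of −0.18 to 0.82, so a rise of the size seen for il1b lies outside it. Without uncut replicate 1 the value was 0.61 and was called (edgeR adjusted p = 0.0371).

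Other chemokine genes were mostly too low to test. Of 53 genes with a chemokine name besides cxcl8a, 14 had no count in any library and 10 were tested, of which 2 rose and 1 fell. The share called was 30%, beside 40.4% of all tested genes, and the median of the tested chemokines was 0.13, beside 0.003 for all tested genes. The gene cxcl18b, a zebrafish neutrophil attractant, had 5.05, 4.90 and 3.66 CPM in amputated replicates 1, 2 and 3, against 2.31, 1.12 and 1.17 CPM in uncut replicates, and rose by 1.57 ± 0.28 (SE, edgeR adjusted p = 8.4e-04). As with cxcl8a, uncut replicate 1 was the highest uncut library for cxcl18b. The gene cxcl14, an epithelial chemokine, was lower at −0.42 ± 0.13 (SE, edgeR adjusted p = 0.0223), with 60.5 ± 5.89 CPM in amputated folds and 80.9 ± 17.3 CPM in uncut folds (SD, n = 3 each). The CC chemokine gene ccl34b.1 was higher at 0.97 ± 0.31 (SE, edgeR adjusted p = 0.0251), with 128 counts in the amputated libraries together and 48 in the uncut libraries. With 9 counts in uncut replicate 1, ccl34b.1 was just below the cut of the filter on low counts there. It met that filter in full only in the amputated libraries, the group in which it is high. The calls of cxcl14 and ccl34b.1 were near the threshold. That of cxcl14 was lost, at −0.41, −0.36 and −0.23, without amputated replicate 2, amputated replicate 3 or uncut replicate 1 (edgeR adjusted p = 0.076, 0.0901 and 0.0619), and with library totals alone (edgeR adjusted p = 0.306). That of ccl34b.1 was lost, at 0.87, 0.97 and 0.70, without amputated replicate 1, amputated replicate 2 or uncut replicate 1 (edgeR adjusted p = 0.0854, 0.0654 and 0.0786), and with DESeq2 (0.96, DESeq2 adjusted p = 0.0597). Chemokines called higher were 1 without amputated replicate 1 or 2, 4 with library totals alone and 5 with no filter on low counts. The paralogs of cxcl8a, named here after their values were seen, were below the filter. For cxcl8b.1 there were 15, 10 and 1 counts in amputated replicates 1, 2 and 3, against 2, 0 and 0 in uncut replicates 1, 2 and 3, and its groups overlapped. For cxcl8b.3 there were 10 counts in all amputated libraries and 2 in all uncut libraries.

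Among 27 chemokine receptor genes, 13 were tested, of which 4 rose and 3 fell, with a median of 0.39. The share called was 53.8%, beside 40.4% of all tested genes, and library totals alone gave 7 higher and 1 lower. The gene cxcr3.2, a receptor of zebrafish macrophages, had 2.82, 2.84 and 2.66 CPM in amputated replicates 1, 2 and 3, against 0.725, 0.651 and 0.486 CPM in uncut replicates, a rise of 2.11 ± 0.27 (SE, edgeR adjusted p = 7.2e-05). The receptor genes ccr9a and ccr12b.2 rose by 2.98 ± 0.47 and 3.16 ± 0.60 (SE, edgeR adjusted p = 3.4e-04 and 0.00127) with few uncut reads. For ccr9a the sums were 123 counts in amputated and 11 in uncut libraries, and for ccr12b.2 they were 64 in amputated and 5 in uncut libraries. So few uncut counts cannot meet the filter on low counts in the uncut libraries. Both genes were therefore tested because of their amputated reads, as il1b was, and both are among the 4 that rose. The gene cxcr3.2, also among those 4, was below the cut of that filter in uncut replicate 3. It too met the filter in full only in the amputated libraries. The number of receptors that rose thus rests largely on genes admitted by the group in which they are high. With single libraries left out, ccr9a ranged from 2.56 to 3.77 and ccr12b.2 from 2.81 to 3.88, the highest value coming without uncut replicate 3 for ccr9a and without uncut replicate 1 for ccr12b.2. In the authors' deposited table, with its sign turned round, they were 2.05 and 1.74. The atypical receptor gene ackr4b, which encodes a chemokine scavenger, fell by 0.62 on the log2 scale, with 25.2 ± 0.628 CPM in amputated folds and 38.8 ± 2.72 CPM in uncut folds (SD, n = 3 each; edgeR adjusted p = 1.7e-04). Receptors called lower were 1 in place of 3 without amputated replicate 3 or without uncut replicate 1. The genes cxcr1 and cxcr2, whose products bind Cxcl8 and which are named here for that role, had 16 and 4 counts in all amputated libraries and 0 and 1 in all uncut libraries.

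The NF-kB subunit genes divided into those of the precursors, which rose, and those of the Rel proteins, which were not called. The nfkb1 and nfkb2 products are long precursors that are trimmed to the DNA-binding subunits p50 and p52, whereas rela and relb encode subunits with a transactivation domain. The gene nfkb1 (chromosome 14, 50609994 to 50657925) had 35.7, 34.6 and 32.2 CPM in amputated replicates 1, 2 and 3, against 16.2, 20.8 and 22.9 CPM in uncut replicates 1, 2 and 3. Its groups did not overlap, and it rose by 0.78 ± 0.12 on the log2 scale (SE, edgeR adjusted p = 2.8e-04), or 1.72-fold. The gene nfkb2 (chromosome 13, 22586916 to 22605097) had 40.9, 42.5 and 43.8 CPM in amputated replicates 1, 2 and 3, against 36.1, 34.3 and 27.3 CPM in uncut replicates 1, 2 and 3. Its lowest amputated library was above its highest uncut library by a small margin, and it rose by 0.37 ± 0.10 (SE, edgeR adjusted p = 0.0129), or 1.30-fold.

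The gene rela (chromosome 7, 626603 to 667906), which encodes p65, was the steadiest of the set within each group. It had 72.2, 70.4 and 71.0 CPM in amputated replicates 1, 2 and 3, against 66.4, 67.6 and 68.0 CPM in uncut replicates 1, 2 and 3, with coefficients of variation of 1.26% in amputated and 1.22% in uncut folds. At its counts these spreads are no wider than counting error. The groups did not overlap, but the log2 fold change was 0.08 ± 0.07 (SE, edgeR adjusted p = 0.416), with a 95% interval of −0.08 to 0.24. With library totals alone it was 0.34 and was called (edgeR adjusted p = 0.00316). The gene relb (chromosome 15, 17164390 to 17189195) had 15.8, 16.6 and 14.5 CPM in amputated replicates 1, 2 and 3, against 16.1, 17.2 and 14.5 CPM in uncut replicates 1, 2 and 3. The ranges of relb almost coincided, and its log2 fold change was −0.04 ± 0.11 (SE, edgeR adjusted p = 0.81), with a 95% interval of −0.28 to 0.21, and 0.22 with library totals alone (edgeR adjusted p = 0.152). These intervals leave room for a small change of rela or relb in either direction.

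The I-kB alpha inhibitor genes, which are NF-kB targets in mammals and whose products hold NF-kB in the cytoplasm, were lower after amputation. The gene nfkbiab (chromosome 17, 12788568 to 12792670) had 76.9, 67.5 and 73.3 CPM in amputated replicates 1, 2 and 3, against 139.6, 117 and 87.5 CPM in uncut replicates 1, 2 and 3. The groups did not overlap, the uncut libraries were spread more widely than the amputated ones, and the log2 fold change was −0.67 ± 0.14 (SE, edgeR adjusted p = 0.00197), with −0.41 under library totals alone (edgeR adjusted p = 0.0227). The gene nfkbiaa (chromosome 20, 16982300 to 16985154) had 51.5, 48.4 and 39.1 CPM in amputated replicates 1, 2 and 3, against 69.0, 61.1 and 48.5 CPM in uncut replicates 1, 2 and 3. The groups overlapped, since amputated replicate 1 was above uncut replicate 3, but within each of the 3 same-numbered pairs the amputated library was the lower one. The log2 fold change was −0.37 ± 0.13 (SE, edgeR adjusted p = 0.0406), and with the replicate number as a block it was −0.36 (edgeR adjusted p = 0.0017). The pairing by number was inferred from these same data and is stated by no label, so the blocked value is not separate support for the call. Without the block the call was lost, at −0.40, −0.26, −0.25 and −0.36, without amputated replicate 2, amputated replicate 3, uncut replicate 1 or uncut replicate 2 (edgeR adjusted p = 0.0778, 0.164, 0.123 and 0.0994) and with library totals alone (−0.11, edgeR adjusted p = 0.517), and nfkbiaa was not called in the authors' deposited table (padj 0.0616). The end of nfkbiaa shares 410 bases with the proteasome gene psma6b, which rose by 0.52 ± 0.11 (SE, edgeR adjusted p = 0.00219), and the library kit does not mark strand, so reads in that stretch cannot be told apart. Reads of the paralogs nfkbiaa and nfkbiab may also be split or shared in a way that depends on the authors' counting.

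**Figure D2:**
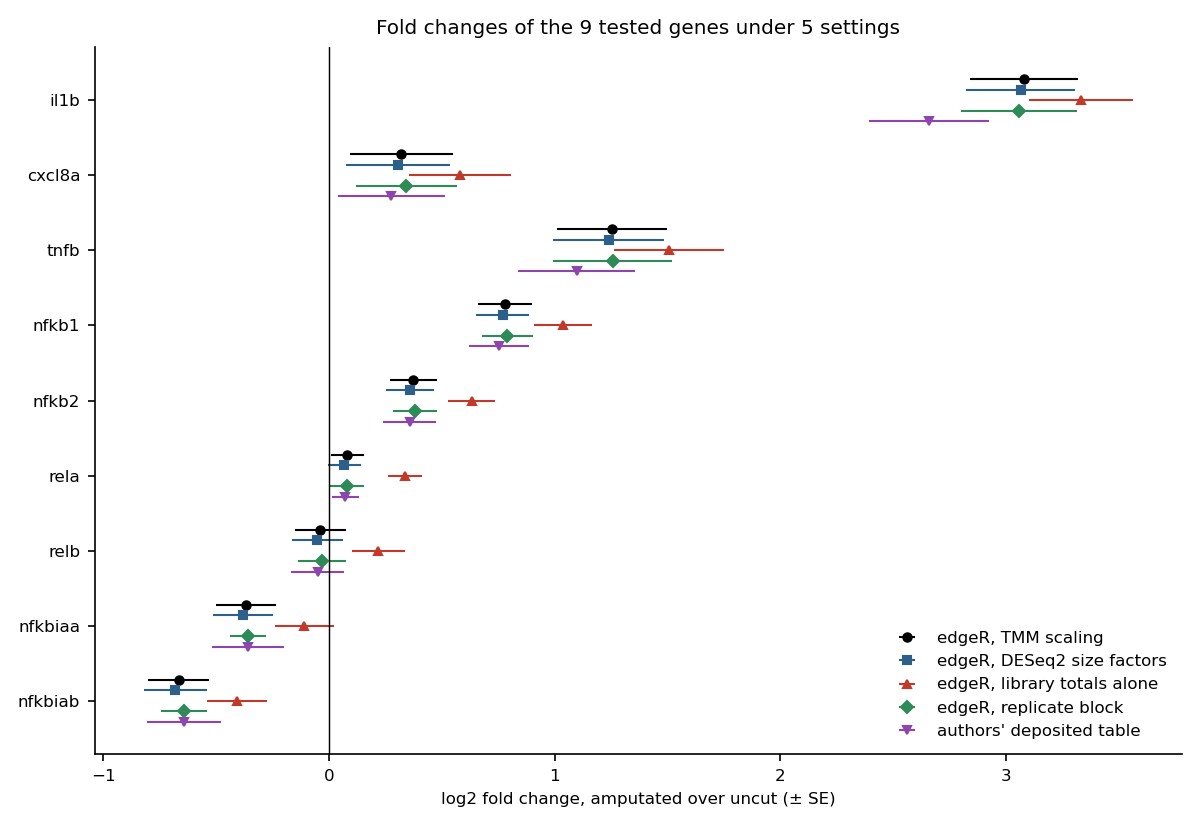
Log2 fold changes (amputated over uncut, ± SE, linear axis) of the 9 tested genes under 5 settings, namely edgeR with TMM, with DESeq2 size factors, with library totals alone and with a replicate block, and the authors' deposited table with its sign turned round. With TMM the values run between 3.08 for il1b and −0.67 for nfkbiab, and library totals alone shift every gene to the right, with relb at 0.22 there and at −0.04 with TMM.

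Within the uncut group nfkb1 varied against the I-kB alpha genes. Uncut replicate 1 had the highest level of nfkbiaa and nfkbiab and the lowest of nfkb1, and uncut replicate 3 had the lowest level of both inhibitor genes and the highest of nfkb1. The second principal component also had this order, at 35.6, −10 and −23.2 in uncut replicates 1, 2 and 3. How far other genes share the order was not tested. Of the other subunit genes, rela had the order of nfkb1 over a narrow range, at 66.4, 67.6 and 68.0 CPM in uncut replicates 1, 2 and 3. The genes relb and nfkb2 did not share the order of nfkb1. The precursor gene nfkb2 had the full order of the inhibitor genes, at 36.1, 34.3 and 27.3 CPM in uncut replicates 1, 2 and 3. The contrast with the inhibitor genes therefore does not hold for the subunit genes as a class. Nor did it hold in the amputated group, where replicate 1 was the highest for nfkb1, nfkbiaa and nfkbiab. In amputated replicates 1, 2 and 3, nfkb1 had 35.7, 34.6 and 32.2 CPM and nfkbiaa had 51.5, 48.4 and 39.1 CPM, the same order. The levels of nfkbiab there were 76.9, 67.5 and 73.3 CPM. Ratios of counts within a library do not depend on how libraries are scaled, and 8 such ratios were compared between groups with a two-sided exact permutation test, for which 3 against 3 libraries allow no p below 0.1. The ratio of nfkb1 to nfkbiab counts was 0.464, 0.512 and 0.440 in amputated replicates 1, 2 and 3, against 0.116, 0.177 and 0.261 in uncut replicates 1, 2 and 3. Every amputated library had more nfkb1 per nfkbiab than every uncut library, a log2 difference of 1.43 (exact p = 0.1, 0.16 adjusted over the 8 ratios). Since nfkb1 was higher and nfkbiab lower in every amputated library, this outcome was fixed by their levels and adds no support. The ratio of nfkb1 to nfkbiaa was 0.693, 0.715 and 0.824 in amputated folds and 0.235, 0.340 and 0.471 in uncut folds, a log2 difference of 1.14 (exact p = 0.1, adjusted 0.16) again without overlap. Here too the groups of nfkb1 by itself did not overlap, so the ratio is not separate support. The groups overlapped for nfkbiaa to nfkbiab (difference 0.28, exact p = 0.2, adjusted 0.267), for relb to rela (−0.11, exact p = 0.3, adjusted 0.3) and for nfkb2 to nfkb1 (−0.40, exact p = 0.3, adjusted 0.3). In this design these last ratios do not show whether the paralogs, or nfkb2 and nfkb1, changed alike.

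Leukocyte markers moved with il1b. Of 11 tested neutrophil markers 9 rose, of 8 tested macrophage markers 7 rose, and of 10 tested pan-leukocyte markers 8 rose, beside 20.8% of all tested genes. Neutrophil markers summed to 102 to 158 CPM in amputated folds and 21.4 to 36.4 CPM in uncut folds. Macrophage markers summed to 53.4 to 55.1 CPM in amputated folds and 26.2 to 27.9 CPM in uncut folds, with grn2 at 0 in all 6 libraries. Pan-leukocyte markers summed to 75.4 to 87.2 CPM in amputated folds and 17.2 to 24.6 CPM in uncut folds. All 3 sums were therefore higher in every amputated library than in every uncut library. Defining genes such as the peroxidase gene mpx and the actin-bundling gene lcp1 were also found without a cut, at 3.99 ± 1.19 and 1.35 ± 0.368 CPM in uncut folds (SD, n = 3).

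Counts of il1b were also set against the counts of these markers in the same library. There were 38.0, 29.5 and 52.5 il1b counts per 1000 neutrophil marker counts in amputated replicates 1, 2 and 3, against 18.1, 22.3 and 27.3 in uncut replicates 1, 2 and 3. Against macrophage markers it had 97.5, 87.4 and 97.4 per 1000 in amputated folds and 25.1, 20.0 and 21.1 per 1000 in uncut folds. Against pan-leukocyte markers it had 65.9, 53.5 and 71.2 per 1000 in amputated folds and 26.7, 30.8 and 33.9 per 1000 in uncut folds. The groups lay clearly apart for macrophage and pan-leukocyte markers, with log2 differences of 2.02 and 0.98 (each with exact p = 0.1, the smallest possible, and 0.16 adjusted over the 8 ratios). Sums weigh abundant markers most. The macrophage sum averaged 54.1 CPM in amputated and 27.3 CPM in uncut folds, a smaller rise than the median log2 change of 1.47 of its 8 tested markers. The size of the macrophage ratio therefore depends on how the markers are combined. For neutrophil markers the log2 difference was 0.73 with 0.5 added to each count (exact p = 0.1, adjusted 0.16), but amputated replicate 2 and uncut replicate 3 were then both at −5.08 on the log2 scale. With 1 added to each count that difference was 0.66 and the exact p was 0.2, so the separation from neutrophil markers depends on the added count. Within same-numbered pairs the exact p was 0.25 for each of the 3 lists, the smallest that 3 pairs allow, and none of these tests passed the threshold. The 6 to 12 il1b counts per uncut library limit the precision of all of these ratios.

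**Figure D3:**
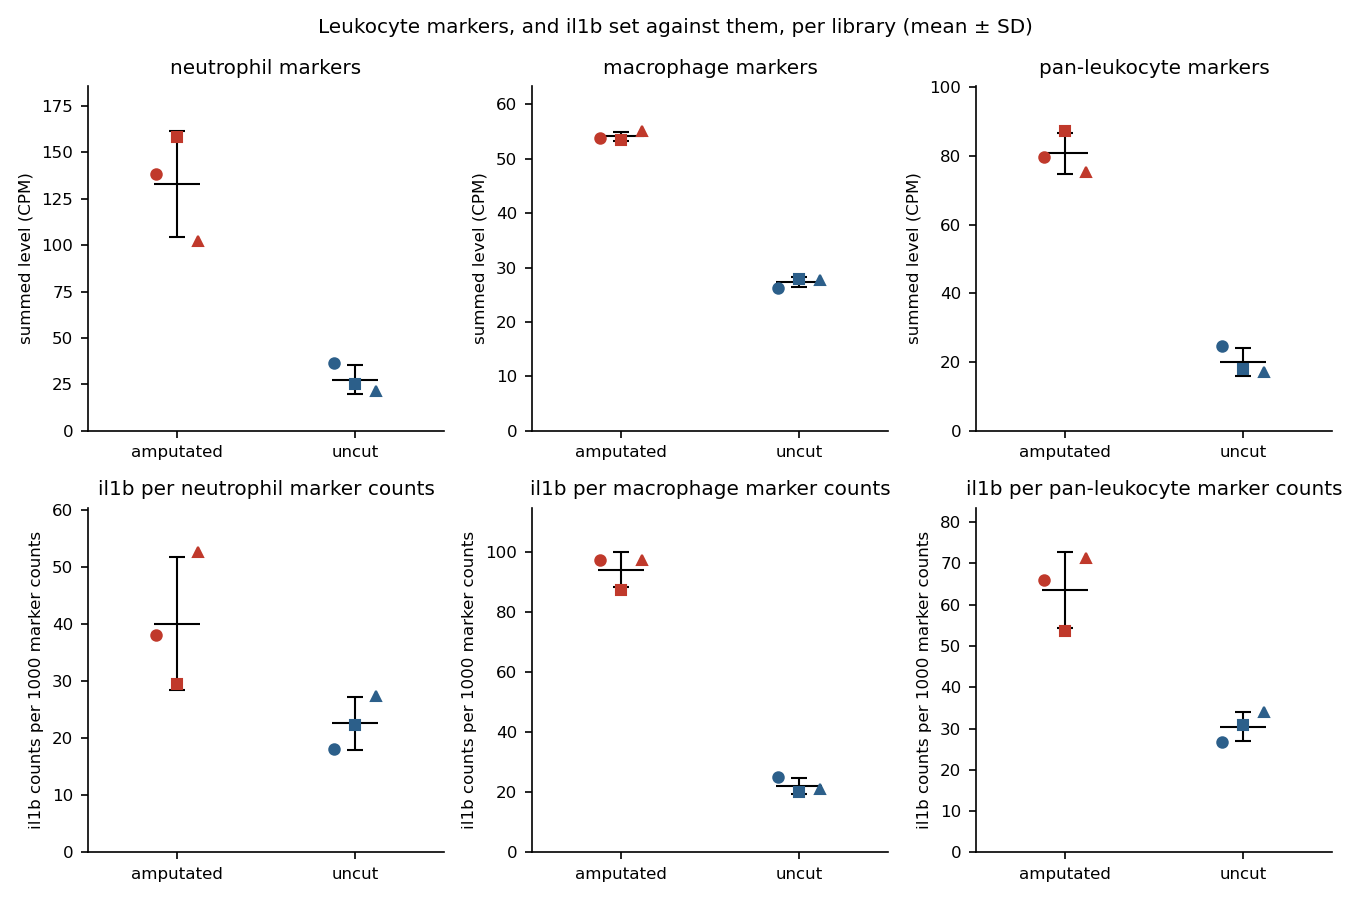
Upper row, summed level (CPM) of neutrophil, macrophage and pan-leukocyte markers, and lower row, il1b counts per 1000 counts of the same markers, in amputated (left, red) and uncut (right, blue) libraries with mean ± SD on linear axes from 0. The marker sums are higher in every amputated library, and il1b per marker has its widest gap for macrophage markers (87.4 to 97.5 against 20.0 to 25.1) and nearly meets for neutrophil markers (29.5 against 27.3). The sums weigh abundant markers most.

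Upstream of NF-kB, receptor and adaptor genes moved both ways. In the list of IL-1, inflammasome and Toll signalling genes, 31 of 36 were found and 21 tested, of which 7 rose and 4 fell. Among those that rose, tlr3, named here for its low counts, had 9, 20 and 3 counts in uncut replicates 1, 2 and 3. It met the filter on low counts in full only in the amputated libraries, the group in which it is high. The share called was 52.4%, beside 40.4% of all tested genes, and the median was 0.14. Library totals alone gave 11 higher and 3 lower. The kinase-like gene irak3, a brake on this pathway in mammals, had 13.5, 15.2 and 10.6 CPM in amputated replicates 1, 2 and 3, against 1.38, 1.91 and 1.46 CPM in uncut replicates 1, 2 and 3. It rose by 3.01 ± 0.20 on the log2 scale (SE, edgeR adjusted p = 9.5e-07), close to the value of il1b. The kinase gene irak1 rose by 0.85 ± 0.14 and the Toll pathway adaptor gene ecsit by 0.91 ± 0.11 (SE, edgeR adjusted p = 4.4e-04 and 6.6e-05), while tab1, which encodes an activator of the kinase TAK1, fell by 0.63 on the log2 scale (edgeR adjusted p = 3.7e-04).

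In the list of TNF receptor and signalling genes, 24 of 26 were found and 23 tested, of which 7 rose and 1 fell. The share called was 34.8%, beside 40.4% of all tested genes, and the median was 0.15. The receptor gene tnfrsf1a had 85.8, 90.6 and 74.2 CPM in amputated replicates 1, 2 and 3, against 38.0, 33.8 and 35.4 CPM in uncut replicates 1, 2 and 3. It rose by 1.23 ± 0.10 (SE, edgeR adjusted p = 2.4e-06), and the other receptor gene, tnfrsf1b, by 0.57 ± 0.14 (edgeR adjusted p = 0.00568). The gene tnip2, which encodes a partner of the NF-kB brake A20, rose by 1.35 ± 0.25 (SE, edgeR adjusted p = 9.6e-04), and tnfaip8l2b was the gene that fell, by 0.45 (edgeR adjusted p = 0.00391), a call lost with library totals alone (edgeR adjusted p = 0.118). Genes called lower in this list were 2 with the replicate number as a block, with DESeq2 size factors and without uncut replicate 1, and 3 in the authors' deposited table. With library totals alone 12 were called higher.

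The remaining NF-kB and I-kB family genes and kinases had the smallest share called of the 6 lists. Of 26 listed, 24 were found and tested, and 3 rose and 2 fell, while 11 were called higher with library totals alone. The share called was 20.8%, beside 40.4% of all tested genes, and the median was −0.01. Among the kinase complex genes, chuk (0.01), ikbkb (0.09) and ikbkg (−0.10) were not called (edgeR adjusted p = 0.964, 0.492 and 0.312), and these 3 are named for their role. The atypical I-kB gene bcl3, whose product binds p50 and p52, had 3.96, 3.65 and 3.27 CPM in amputated replicates 1, 2 and 3, against 0.988, 1.21 and 1.07 CPM in uncut replicates 1, 2 and 3. It rose by 1.71 ± 0.23 (SE, edgeR adjusted p = 1.1e-04). The repressor gene nkrf rose by 0.44 ± 0.11 (edgeR adjusted p = 0.00763). The ubiquitin ligase gene rnf11a was lower at −0.55 ± 0.12 and the nuclear I-kB gene nfkbiz at −0.33 ± 0.09 (SE, edgeR adjusted p = 0.00246 and 0.0151). With library totals alone neither was called (edgeR adjusted p = 0.0552 and 0.546), and nfkbiz was not called without amputated replicate 2 (edgeR adjusted p = 0.0731). Genes of this list called lower were 4 with the replicate block, 4 with no filter on low counts, 1 without amputated replicate 2 and 4 without uncut replicate 3.

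Among genes known as NF-kB targets, mostly from mammals, 34 of 36 listed names were found. The names irg1, which was found, and acod1, which was not, stand for the same gene. Of 24 tested genes 9 rose and 3 fell (50% called, beside 40.4% of all tested genes, median 0.42). With library totals alone 13 were called higher and the 3 that fell were not called. The gelatinase gene mmp9 had 1071, 1154 and 757 CPM in amputated replicates 1, 2 and 3, against 38.3, 38.7 and 42.4 CPM in uncut replicates 1, 2 and 3, a rise of 4.65 ± 0.16 (SE, edgeR adjusted p = 4.5e-09). The transcription factor gene cebpb rose by 1.04 ± 0.10 (edgeR adjusted p = 7.8e-06). The gene irg1, whose product makes itaconate in activated macrophages, had 13.1 ± 0.861 CPM in amputated folds and 4.43 ± 1.82 CPM in uncut folds (SD, n = 3 each), and rose by 1.59 ± 0.22 (SE, edgeR adjusted p = 1.5e-04). The plasminogen activator gene plaua rose by 2.88 ± 0.39 (edgeR adjusted p = 1.2e-04), with 104 counts in amputated and 10 in uncut libraries, and was at 2.01 in the authors' deposited table with its sign turned round. Like il1b, plaua met the filter on low counts through the amputated libraries alone. Not all of these genes are targets of NF-kB alone, and several are also known targets of AP-1.

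**Figure D4:**
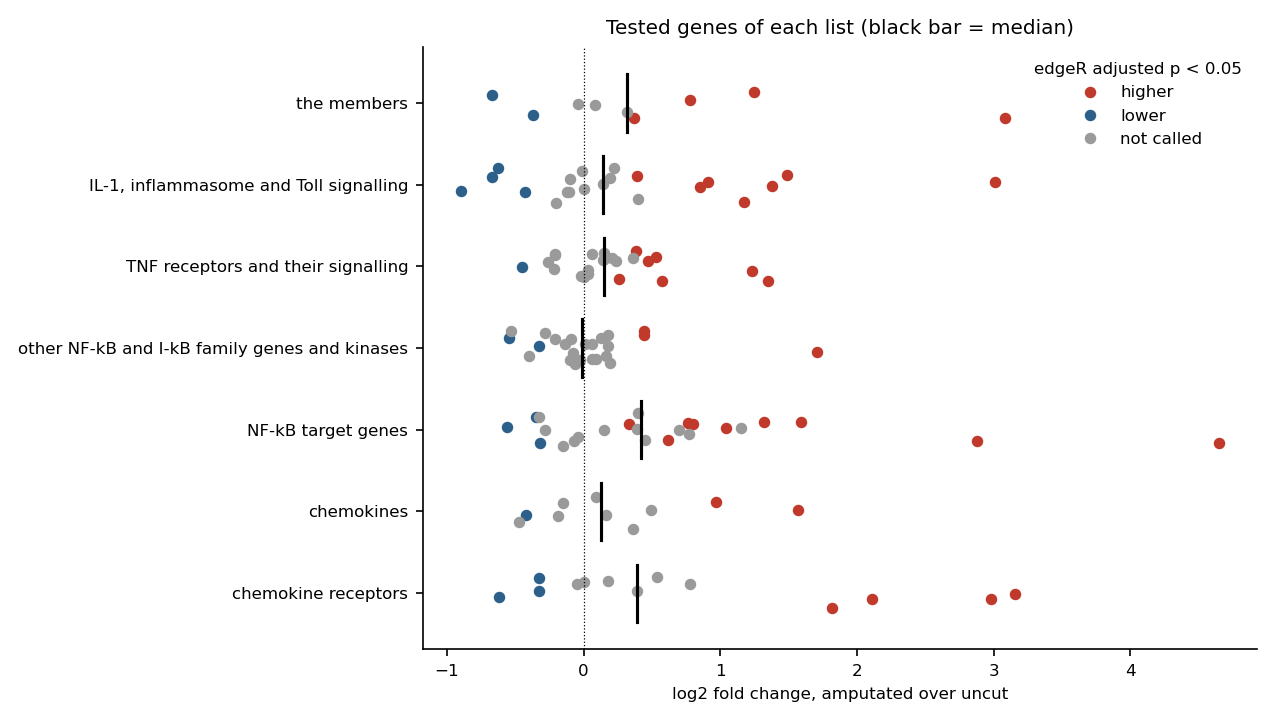
Log2 fold changes (amputated over uncut, linear axis) of the 9 tested genes described above (top line, "the members") and of the tested genes of each list, red where called higher, blue where called lower and grey where not called at an edgeR adjusted p under 0.05, with the list's median as a black bar. Most genes of the other NF-kB and I-kB list lie near 0 (median −0.01), whereas single genes of other lists, such as mmp9 at 4.65 and irak3 at 3.01, lie far to the right.

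Over these 6 lists together, 32 of 115 tested genes were called higher and 14 lower, which is 40.0% beside 40.4% of all tested genes. By direction, 27.8% of the listed genes were higher, beside 20.8% of all tested genes, and 12.2% were lower, beside 19.6%. Some of the listed genes called higher met the filter on low counts in full only in the amputated libraries, as stated above for single genes. The share called higher therefore rests in part on genes admitted by the group in which they are high. The same filter was applied to all genes, and its effect on either share was not tested. The share called in both directions together is near the background, and no test of these shares was made. With library totals alone 58 were called higher and 4 lower.

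The genes whose pattern over the 6 libraries was most like that of il1b, among 16492 tested genes averaging 1 CPM or more, were epha7 (an ephrin receptor gene, Pearson r = 0.9994 of log2 levels), abcg2a (a drug efflux pump gene, r = 0.9992) and pinx1 (a telomerase inhibitor gene, r = 0.9991). These are descriptions over 6 libraries that fall into 2 groups, and 1527 genes had an r of at least 0.95. The rise was 1.61 ± 0.10 for epha7, 2.38 ± 0.14 for abcg2a and 0.50 ± 0.08 for pinx1 on the log2 scale (SE), so genes alike in pattern differed in the size of change.

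Markers of other cells were read for comparison. The fold was recognisable by its own genes, with the actinotrichia gene and1 at 11686 ± 1034 CPM in amputated folds and 27714 ± 445 CPM in uncut folds, and the superficial keratin gene krt4 at 31877 ± 3548 CPM in amputated folds and 44695 ± 6236 CPM in uncut folds (SD, n = 3 each). Beside 19.6% of all tested genes called lower, of superficial epidermis markers 6 of 10 fell, of basal epidermis markers 6 of 10 fell and 1 rose, and all 7 tested mesenchyme and actinotrichia markers fell. Of skeletal muscle markers 5 of 6 fell, of blood vessel markers 1 of 5 fell, and the 4 red blood cell markers summed to 78.3 to 136 CPM in amputated folds and 61.7 to 158 CPM in uncut folds, which overlap. The part of these shifts in the levels of the NF-kB genes, which many cell types express, was not tested.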

How the data were processed

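Fin fold RNA of 3-day-old larvae was sequenced from 3 amputated (4 h) and 3 uncut samples, with a TruSeq RNA v2 kit that does not mark strand, per the labels' protocols. The authors deposited 1 table with whole-number counts per gene. It also holds normalized signal values, which are the counts divided by a size factor per library (largest relative deviation 5.5e-10), per the file headers. The authors' deposited log2 fold changes (uncut over amputated), their test score, and p-values with adjustment (12918 adjusted values are NA) were used for comparison only. The submitters' processing notes list Cufflinks, DESeq2 and TopHat. No version, genome build or counting rule is given in these sources, and coordinates are those of the deposited table.

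Differences in counts were then tested in R 4.3.3 by edgeR 4.0.16 (TMM, quasi-likelihood test, filterByExpr with a minimum count of 10 and minimum total of 15), amputated over uncut, with Benjamini-Hochberg adjustment. The SE was taken as the size of the log2 change divided by the root of F. The fit was also run on simulated data in which far fewer genes changed than were called here. That run does not bear on the choice of scaling. Alternatives were DESeq2 1.42.0, DESeq2 size factors, library totals alone, no filter, a replicate block and each library left out. Samples with the same number deviated together (r = 0.222, 0.199 and 0.153, against −0.143 to −0.0399 for other pairs), so the numbers were taken to pair the libraries, by these data and not by a label. Deviations from a group mean cancel out within the group, so the negative values are not a separate contrast. The main fit did not use the pairing. Within-library ratios used a two-sided exact permutation test on log2 ratios with 0.5 added to each count. The likeness to il1b used log2(CPM + 0.5).

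The genes and lists were chosen with earlier results of these data known. Beside the 10 genes, the text names up to 4 called, non-overlapping genes per list by smallest adjusted p, and the 3 genes most like il1b, with exceptions stated where they stand. Depth was 11216130 to 23019556 counts per library, and intervals on counts cover counting error only.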

Additional observations from a re-analysis of the deposited data

How the results depend on the processing

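Scaling by library totals alone changed most. All tested genes called higher were then 6821 and lower 1636, listed pathway genes 58 and 4, and of the 10 genes 5 were called higher and 1 lower. The authors' deposited table also had 1 of the 10 lower, since nfkbiaa was not called there. With single libraries left out, 4 to 5 of the 10 were called higher and 1 to 2 lower. Over all tested genes these ranges were 3011 to 3869 higher and 2732 to 3667 lower, and over the lists 27 to 39 and 11 to 15. With the replicate block 4 of the 10 were higher and 2 lower, with 4125 and 4016 over all genes. The blocked fit changed no call of a named gene. Over 108 alternative values of the 9 tested genes, 6 lost a call (all nfkbiaa), 2 gained one (rela with library totals alone, cxcl8a without uncut replicate 1), and none reversed a called direction. Over 312 values of the 26 other named genes 12 lost a call. Low counts limit tnfa, most chemokines and the uncut level of il1b, and the causes of these differences were not tested.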
